A study of Mus musculus with 9 samples.

Results

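Telomerase and shelterin are the machineries that lengthen and protect chromosome ends, and 10 of their genes were followed here: Tert, Dkc1, Rtel1, Terf1, Terf2, Terf2ip, Tinf2, Acd, Pot1a and Pot1b. They were taken by gene symbol from the 24341 genes listed in the deposited tables, and each of the 10 was found in each table. RNA-seq had been performed on mouse embryonic fibroblasts (MEFs), connective tissue cells cultured from embryos, with 3 samples each of WT, Atm-/- and Sirt6-/- genotype. ATM is a kinase that responds to DNA breaks, SIRT6 is a chromatin deacylase, and the study sequenced these cells while asking how ATM bears on glycolysis. All 9 samples carried the strain label C57BL/6, were grown in DMEM with 10% FBS and were prepared from mRNA selected with oligo(dT).

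The groups have limits as models of the genotypes. The labels also list p53-null and Atm-/-P53-/- mice as cell sources but assign them to no sample, and the methods of the study describe immortalized Atm-/-;p53-/- and Sirt6-/- MEF lines from separate laboratories. Cell line, p53 status and genotype therefore cannot be told apart in these groups. Nothing in the labels says that the samples of a genotype came from separate embryos or cultures, so the p-values measure the spread between these samples, which may be technical. Sirt6 had 487, 402 and 472 reads in the WT samples and 4, 5 and 7 in the Sirt6-/- samples. Atm had 1536, 1617 and 1627 reads in WT but 3768, 3564 and 3443 in the samples labelled Atm-/-, so the Atm gene count goes against that label. A gene count does not show which exons the reads cover, and these samples are called the libraries labelled Atm-/- throughout. Trp53, the gene of p53, had 7108, 7102 and 6563 reads in WT and 806, 946 and 928 in the libraries labelled Atm-/-.

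Between 32187040 and 33837949 reads were assigned to genes in each sample, and 3 reads corresponded to 0.0887 to 0.0932 CPM, the usual scale of counts relative to the library total. Values are given below as normalized CPM, which is reads scaled to a common library size with the TMM method, unless RPKM is named. Of 12 fibroblast markers, 11 averaged over 10 CPM across the 9 samples and Lum had at most 10 reads in any sample, while Thy1 had 590 to 941 reads in WT, 2874 to 3200 in the libraries labelled Atm-/- and 1, 33 and 12 in Sirt6-/-. Of the 11 tested, 9 were lower and 2 higher in the libraries labelled Atm-/- than in WT (33.6% and 34.7% of all genes tested were), and 6 were lower and 5 higher in Sirt6-/- (37.4% and 39.2%). The summed level of the 12 was 28256.5 to 31333 CPM in WT, 9313 to 9578 CPM in the libraries labelled Atm-/- and 20634 to 20984 CPM in Sirt6-/-. Among 10 pluripotent or germ cell markers, Pou5f1, Zfp42, Dppa3, Dppa4, Dazl and Esrrb had no read in any sample. Of the list's 3 genes tested against WT, Ddx4 was higher in the libraries labelled Atm-/- (706 to 853 reads against 58 to 95 in WT and 1 to 8 in Sirt6-/-), while Nanog (20 to 40 reads against 44 to 84) and Lin28a (2 reads in each library against 30 to 41) were lower. The summed level of 8 epithelial markers was 24.01 to 28.3 CPM in WT, 46.7 to 51.7 CPM in the libraries labelled Atm-/- and 18.3 to 23.5 CPM in Sirt6-/-. For 6 endothelial markers it was 3.11 to 5.15, 9.81 to 12.5 and 0.649 to 0.990 CPM, and for 8 immune markers 11.1 to 12.1, 3.81 to 3.99 and 3.90 to 4.85 CPM, in the same order. Between WT and the libraries labelled Atm-/-, the epithelial, endothelial and immune sums differed largely through 1 gene each. Mean Krt18 was 7.21 and 28.17 CPM, Kdr 3.37 and 10.98 CPM, and Csf1r 7.71 and 0.716 CPM. Of 7 epithelial markers tested, 2 were higher in the libraries labelled Atm-/- and 2 lower in Sirt6-/- than in WT. The epithelial, endothelial and immune sums therefore do not show a shift of a whole list between WT and the libraries labelled Atm-/-. The part of these differences in the results below was not tested. In bulk samples, fewer cells of a type and less RNA per cell cannot be told apart.

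Telomeres are arrays of a short DNA repeat that shorten when cells divide. Telomerase, a reverse transcriptase (TERT) that copies an RNA template held by dyskerin (DKC1), adds repeats back. Shelterin coats the repeats: TRF1 (from Terf1) and TRF2 (from Terf2) bind the double strand, RAP1 (from Terf2ip) rides on TRF2, TIN2 (from Tinf2) ties them together, and TPP1 (from Acd) joins TIN2 to the POT1 proteins on the single-stranded tail. TRF2 is known for holding back ATM signalling at chromosome ends and the POT1 proteins for holding back the related kinase ATR. RTEL1 is a helicase that unwinds telomeric loops and other folded DNA during replication.

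The Pot1 pair is shown by sequence because mice carry both Pot1a and Pot1b where humans have a single POT1, and their counts must be separable to be compared. The first 120 coding bases of each, read 5′ to 3′ from the GENCODE M21 transcripts, are given with the bases that differ in capitals.
Pot1a: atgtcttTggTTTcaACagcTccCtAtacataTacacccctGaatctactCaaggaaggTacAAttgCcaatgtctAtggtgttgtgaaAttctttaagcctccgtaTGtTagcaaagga
Pot1b: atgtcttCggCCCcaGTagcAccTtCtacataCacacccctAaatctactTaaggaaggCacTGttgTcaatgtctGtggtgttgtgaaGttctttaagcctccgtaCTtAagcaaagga
They differ at 21 of these 120 positions. Both coding sequences are 1923 bases long, and 78.9% of their 1920 aligned bases are the same. The longest identical run is 41 bases, and no stretch of 50 bases occurs in the annotated transcripts of both genes.

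Most genes differed between these groups, and the share of the 10 genes that passed the test was near or below that background. Between the libraries labelled Atm-/- and WT, 7 of the 10 passed edgeR's quasi-likelihood test at a Benjamini-Hochberg adjusted p under 0.05, where 68.4% of the 13283 genes tested passed. Dkc1, Rtel1, Terf2 and Pot1b were higher and Terf1, Acd and Pot1a lower. Between Sirt6-/- and WT, 5 of the 10 passed against 76.6% of 13206 genes, with Terf2 and Terf2ip higher and Dkc1, Rtel1 and Terf1 lower. Between the libraries labelled Atm-/- and Sirt6-/-, 7 of the 10 passed against 75.8% of 13460 genes, with Dkc1, Rtel1 and Pot1b higher (38% of all genes tested were) and Terf2, Terf2ip, Acd and Pot1a lower in the former (37.8% of all genes tested were). The samples of the groups did not overlap for 7, 6 and 7 of the 10 genes in these comparisons, where 72.6%, 79% and 78.2% of all genes tested did not overlap. All 10 genes passed the filter on low counts in each comparison.

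The median log2 fold change of the 10 genes was -0.0040 between the libraries labelled Atm-/- and WT, -0.12 between Sirt6-/- and WT, and 0.03 between the libraries labelled Atm-/- and Sirt6-/-. Over all genes tested it was 0.02, 0.02 and 0.0021. With library totals in place of TMM, the median gene shifted upwards by 0.16 in the libraries labelled Atm-/- and by 0.09 in Sirt6-/-, each against WT. On that scale 4 genes were higher and 1 lower in the libraries labelled Atm-/-, since Acd and Pot1a no longer passed, and 2 were higher and 2 lower in Sirt6-/-, since Rtel1 no longer passed. The shares of all genes given above belong to the TMM scale, so these counts have no matching background here.

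**Figure D1:**
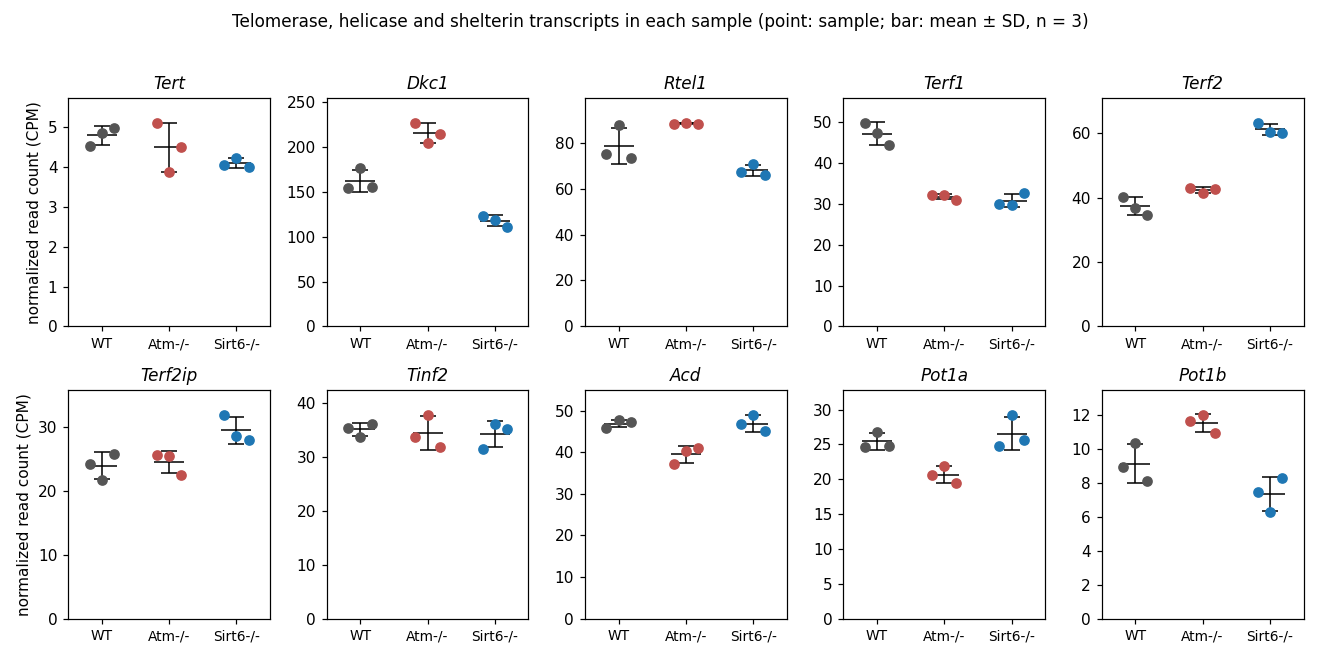
Normalized read counts (CPM, vertical axes from 0) of the 10 genes in each of the 9 samples, with the mean and SD of the 3 samples of a genotype. Dkc1 was highest in the libraries labelled Atm-/- and lowest in Sirt6-/-, Terf1 was highest in WT, Terf2 was highest in Sirt6-/-, and the 3 groups overlapped for Tinf2.

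Tert, the catalytic subunit of telomerase (chr13:73626911-73649843, plus strand; all positions are on GRCm38, GENCODE M21), was detected at a low level in each of the 9 samples. It had 4.52, 4.86 and 4.98 CPM in WT, 5.11, 3.88 and 4.49 CPM in the libraries labelled Atm-/-, and 4.05, 4.23 and 3.99 CPM in Sirt6-/-. These values stand for 132 to 177 reads per sample. The libraries labelled Atm-/- spread across the WT range, while the 3 Sirt6-/- samples lay below the 3 WT samples. Neither difference passed the test. The log2 fold change was -0.10 (95% interval -0.46 to 0.26, adjusted p = 0.617) in the libraries labelled Atm-/- and -0.23 (95% interval -0.58 to 0.13, adjusted p = 0.226) in Sirt6-/- against WT, in the quasi-likelihood test of edgeR with Benjamini-Hochberg adjustment. Between the libraries labelled Atm-/- and Sirt6-/- it was 0.14 (95% interval -0.22 to 0.50). With library totals in place of TMM the first of these values turned to 0.06. The counts summed over 3 samples without TMM scaling were 453 reads in WT (4.52 CPM, exact 95% Poisson interval 4.11 to 4.96), 465 reads in the libraries labelled Atm-/- (4.73 CPM, 4.31 to 5.18) and 402 reads in Sirt6-/- (4.11 CPM, 3.72 to 4.54), intervals that cover counting error only.

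Over the 9 samples Tert stayed within 3.88 to 5.11 CPM. The genes whose log2 CPM followed it most closely over these 9 samples were Gm11201 (Pearson r = 0.930), Nr6a1 (r = 0.925) and Gnrh1 (r = 0.916), picked as the highest of all genes. The 9 points fall into 3 genotypes and share libraries, so these values are a description of likeness. Terc, the RNA template of telomerase, had 0 to 3 reads per sample in these oligo(dT)-selected libraries, at or under the floor of 3 reads.

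Dkc1 encodes dyskerin, which binds and stabilizes the telomerase RNA and also modifies ribosomal RNA (chrX:75095854-75109777, plus strand). Its transcripts numbered 154, 176 and 155 CPM in WT. They numbered 227, 205 and 214 CPM in the libraries labelled Atm-/-. In Sirt6-/- they numbered 123, 119 and 111 CPM. The 3 groups did not overlap, with the libraries labelled Atm-/- on top and Sirt6-/- at the bottom. The mean was 162 ± 12.7 CPM in WT, 215 ± 11.1 CPM in the libraries labelled Atm-/- and 118 ± 6.18 CPM in Sirt6-/- (SD, n = 3 each). Against WT, Dkc1 rose by a log2 fold change of 0.40 (SE 0.06, adjusted p = 2.5e-05) in the libraries labelled Atm-/- and changed by -0.46 (SE 0.06, adjusted p = 6.9e-06) in Sirt6-/-, in the quasi-likelihood test of edgeR with Benjamini-Hochberg adjustment. The direct comparison gave 0.88 (SE 0.05, adjusted p = 8.7e-13). Dkc1 had the largest of the 10 differences in that comparison.

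Rtel1, the telomeric helicase gene (chr2:181319739-181356616, plus strand), had 75.1, 87.6 and 73.3 CPM in WT. In the libraries labelled Atm-/- it had 88.2, 88.7 and 88.3 CPM and in Sirt6-/- 67.2, 70.7 and 66.0 CPM. As for Dkc1, the 3 groups were ordered from the libraries labelled Atm-/- down to Sirt6-/- without overlap, although WT replicate 2 lay within 1 CPM of the libraries labelled Atm-/-. Rtel1 was 0.16 higher on the log2 scale (SE 0.06, adjusted p = 0.0402) in the libraries labelled Atm-/- than in WT and fell by 0.21 on the log2 scale (SE 0.07, adjusted p = 0.0126) in Sirt6-/-, in the quasi-likelihood test of edgeR with Benjamini-Hochberg adjustment. The direct comparison gave a log2 fold change of 0.39 (SE 0.05, adjusted p = 4.7e-07). The call against WT in the libraries labelled Atm-/- was lost with any one library left out except WT replicate 2, with adjusted p between 0.0721 (without Atm-/- replicate 2) and 0.168 (without WT replicate 3). In Sirt6-/- the call was lost without Sirt6-/- replicate 3 (adjusted p = 0.0533) and with library totals (adjusted p = 0.126).

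The summed level of 10 proliferation markers was 2796 to 2983 CPM in WT, 3382 to 3467 CPM in the libraries labelled Atm-/- and 2435 to 2593 CPM in Sirt6-/-. Of the 10 markers, 6 were higher and 0 lower in the libraries labelled Atm-/- than in WT, where 34.7% and 33.6% of all genes tested were. In Sirt6-/- 1 was higher and 6 lower than in WT, where 39.2% and 37.4% of all genes tested were. In either direction, the 60% and 70% that passed against WT are below the 68.4% and 76.6% of all genes tested. Directly compared, all 10 were higher in the libraries labelled Atm-/- than in Sirt6-/-, where 38% of all genes tested were. The part of proliferation in the differences of Dkc1 and Rtel1 was not tested.

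Dkc1 and Rtel1 were ordered alike across the groups without overlap. Pot1b had the same order of means, with 11.5 CPM in the libraries labelled Atm-/-, 9.14 in WT and 7.35 in Sirt6-/-, but its WT and Sirt6-/- samples overlapped. For Dkc1 and Rtel1, the 250 bases before the start of each gene are shown, 5′ to 3′ on the strand of the gene, from RefSeq on GRCm38.p6. Capitals mark the letters GGGCGG (a GC box) or CCGGAA (an ETS-type motif), searched on both strands.
Dkc1 (chrX:75095604-75095853): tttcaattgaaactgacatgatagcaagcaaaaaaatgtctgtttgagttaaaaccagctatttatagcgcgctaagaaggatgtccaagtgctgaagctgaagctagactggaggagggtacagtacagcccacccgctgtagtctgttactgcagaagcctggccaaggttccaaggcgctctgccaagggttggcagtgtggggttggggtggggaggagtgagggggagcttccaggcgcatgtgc
Rtel1 (chr2:181319474-181319723): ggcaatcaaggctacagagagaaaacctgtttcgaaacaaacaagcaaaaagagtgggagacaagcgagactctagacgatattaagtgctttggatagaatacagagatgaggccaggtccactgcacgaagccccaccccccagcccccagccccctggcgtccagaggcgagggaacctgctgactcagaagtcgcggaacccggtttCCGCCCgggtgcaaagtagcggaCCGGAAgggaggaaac
The Dkc1 window held neither motif, and the Rtel1 window held each of them once. Over the 27025 genes in the promoter table, 32.9% had GGGCGG and 12.2% had CCGGAA in the 250 bases before the start. The E-box CACGTG, present in 6.05% of these windows, was in neither gene. These are matches of letters only.

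Terf1, the gene of the double-strand binding protein TRF1 (chr1:15805646-15844052, plus strand), was lower in both mutant groups. It had 49.8, 47.3 and 44.3 CPM in WT. It had 32.1, 32.03 and 31.0 CPM in the libraries labelled Atm-/- and 29.9, 29.7 and 32.5 CPM in Sirt6-/-. Each sample of either mutant group lay below each WT sample, and the mutant groups overlapped each other. Terf1 fell by 0.58 on the log2 scale (SE 0.07, adjusted p = 3.3e-06) in the libraries labelled Atm-/- and by 0.62 on the log2 scale (SE 0.07, adjusted p = 1.8e-06) in Sirt6-/-, in the quasi-likelihood test of edgeR with Benjamini-Hochberg adjustment. Both comparisons use the same 3 WT samples. The direct comparison of the mutant groups gave a log2 fold change of 0.05 with a 95% interval of -0.09 to 0.20. In the libraries labelled Atm-/-, Terf1 had the largest difference from WT of the 10 genes.

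Terf2, the gene of TRF2 (chr8:107069400-107096547, minus strand), went the other way. It had 40.4, 36.9 and 34.8 CPM in WT. The libraries labelled Atm-/- had 43.0, 41.3 and 42.8 CPM and Sirt6-/- had 63.3, 60.3 and 60.2 CPM. All Sirt6-/- samples stood clearly above the others, while the lowest library labelled Atm-/- was within 1 CPM of WT replicate 1. The rise in Sirt6-/- against WT was 0.72 on the log2 scale (SE 0.07, adjusted p = 2.0e-07), and in the libraries labelled Atm-/- it was 0.17 (SE 0.07, adjusted p = 0.0427), in the quasi-likelihood test of edgeR with Benjamini-Hochberg adjustment. Directly compared, the libraries labelled Atm-/- were lower than Sirt6-/- by a log2 fold change of -0.53 (SE 0.06, adjusted p = 3.9e-08). The smaller rise was not called without WT replicate 2, WT replicate 3, Atm-/- replicate 1 or Atm-/- replicate 3 (adjusted p = 0.0737, 0.175, 0.0880 and 0.0819), nor by the DESeq2 Wald test (adjusted p = 0.0521), without a filter on low counts (adjusted p = 0.0547) or with a replicate block (adjusted p = 0.0504).

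Terf2ip, the gene of RAP1, the protein that binds TRF2 (chr8:112011398-112020528, plus strand), had 24.2, 21.7 and 25.8 CPM in WT and 25.6, 25.4 and 22.4 CPM in the libraries labelled Atm-/-. It had 31.8, 28.5 and 27.9 CPM in Sirt6-/-. Only the Sirt6-/- group stood apart among these 9 samples, above the other two, and WT and the libraries labelled Atm-/- overlapped. The log2 fold change against WT was 0.30 (SE 0.09, adjusted p = 0.00584) in Sirt6-/- and 0.03 (95% interval -0.17 to 0.22) in the libraries labelled Atm-/-, in the quasi-likelihood test of edgeR with Benjamini-Hochberg adjustment. The direct comparison gave -0.26 (SE 0.08, adjusted p = 0.00645). Terf2 and its partner gene Terf2ip were thus both higher in Sirt6-/- than in either other group.

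**Figure D2:**
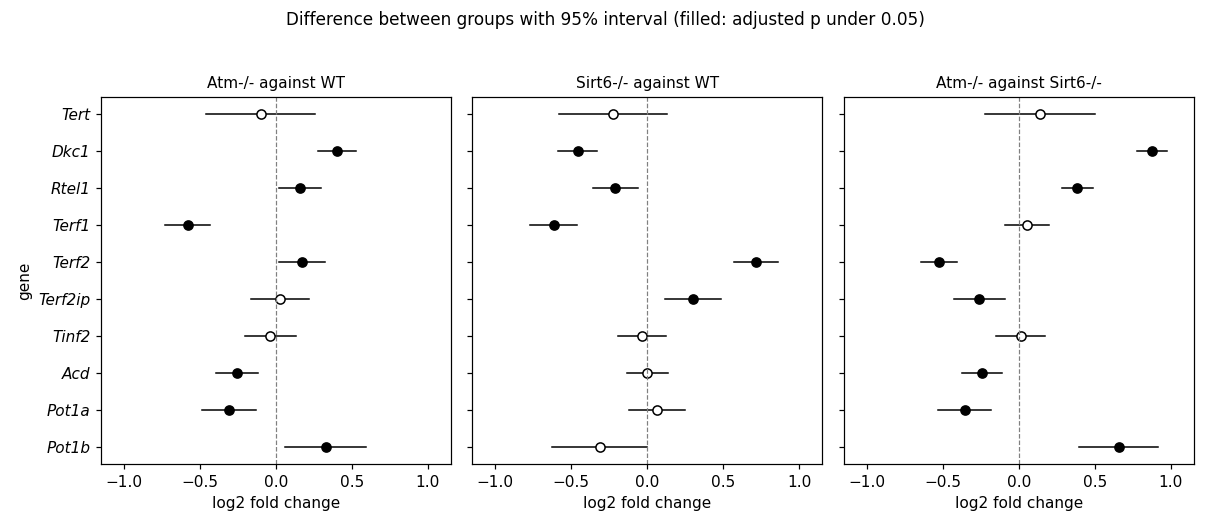
Log2 fold changes (horizontal axes) of the 10 genes with 95% intervals in each pair of groups, with filled points for adjusted p under 0.05. Dkc1 and Rtel1 had filled points on opposite sides of 0 in the comparisons with WT, and Terf1 had them on the same side. Pot1b also lay on opposite sides, with an open point in Sirt6-/- against WT.

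The genes of the shelterin bridge showed smaller differences. Tinf2, the gene of TIN2 (chr14:55674689-55681820, minus strand), ranged over 33.8 to 36.1 CPM in WT, 31.8 to 37.9 CPM in the libraries labelled Atm-/- and 31.6 to 36.1 CPM in Sirt6-/-. The 3 ranges overlapped. The log2 fold change against WT was -0.04 (95% interval -0.20 to 0.13) in the libraries labelled Atm-/- and -0.03 (95% interval -0.19 to 0.12) in Sirt6-/-, and neither passed edgeR's quasi-likelihood test (Benjamini-Hochberg adjusted p = 0.697 and 0.691).

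Acd, the gene of TPP1, which recruits telomerase to the chromosome end (chr8:105695860-105701102, minus strand), had 45.8, 47.6 and 47.1 CPM in WT. In Sirt6-/- it had 46.6, 49.0 and 44.96 CPM and in the libraries labelled Atm-/- 37.1, 40.4 and 41.0 CPM. All 3 libraries labelled Atm-/- lay below all samples of both other groups. Acd fell by 0.26 on the log2 scale (SE 0.07, adjusted p = 0.00297) against WT in the libraries labelled Atm-/-, in the quasi-likelihood test of edgeR with Benjamini-Hochberg adjustment, a call that was lost under library totals, where the value was -0.09 (adjusted p = 0.225). Against Sirt6-/- the log2 fold change was -0.24 (SE 0.06, adjusted p = 0.00198). Sirt6-/- and WT differed by 0.00087 on the log2 scale (95% interval -0.13 to 0.13).

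Tinf2 and Acd overlap genes on the opposite strand. Gmpr2 covers 1540 of the exonic bases of Tinf2 (31.2%), and Carmil2 covers 1208 of those of Acd (33.3%). The library protocol in the labels names no step that marks strand, and whether the counting used strand is not given in the sources used here. Reads of these overlaps may therefore not be separable, and the values of Tinf2 and Acd are uncertain to that extent. Overlaps of Terf2ip (108 bases, with Gm6793) and Dkc1 (45 bases, with Mpp1) were small.

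Pot1a and Pot1b encode the proteins that coat the single-stranded tail, POT1a being known for holding back ATR signalling and POT1b for limiting the trimming of the strand end. Pot1a (chr6:25743737-25809246, minus strand) had 24.6, 26.8 and 24.8 CPM in WT. It had 20.7, 21.9 and 19.4 CPM in the libraries labelled Atm-/- and 24.8, 29.3 and 25.6 CPM in Sirt6-/-. The libraries labelled Atm-/- were lowest without overlap, and WT and Sirt6-/- overlapped. The log2 fold change against WT was -0.31 (SE 0.08, adjusted p = 0.00459) in the libraries labelled Atm-/- and 0.06 (95% interval -0.12 to 0.25) in Sirt6-/-, in the quasi-likelihood test of edgeR with Benjamini-Hochberg adjustment. With library totals in place of TMM the first of these was -0.14 and was no longer called (adjusted p = 0.143). The direct comparison gave -0.35 (SE 0.08, adjusted p = 0.000745).

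Pot1b (chr17:55651951-55712628, minus strand) had 8.94, 10.4 and 8.13 CPM in WT. It had 11.7, 12.02 and 10.9 CPM in the libraries labelled Atm-/- and 7.46, 6.30 and 8.28 CPM in Sirt6-/-. The libraries labelled Atm-/- were highest, and the highest Sirt6-/- sample passed the lowest WT sample. Pot1b differed from WT by a log2 fold change of 0.33 (SE 0.12, adjusted p = 0.0288) in the libraries labelled Atm-/- and by -0.31 (95% interval -0.63 to 0.00076, adjusted p = 0.0648) in Sirt6-/-, in the quasi-likelihood test of edgeR with Benjamini-Hochberg adjustment. The first call was lost without WT replicate 1, WT replicate 3, Atm-/- replicate 1 or Atm-/- replicate 2 (adjusted p = 0.0663, 0.109, 0.0669 and 0.0799). The second was gained with all 9 samples in one fit (adjusted p = 0.0425), with edgeR's exact test (adjusted p = 0.0453), without WT replicate 3 (adjusted p = 0.0345) and without Sirt6-/- replicate 3 (adjusted p = 0.0409). Directly compared, Pot1b was higher in the libraries labelled Atm-/- than in Sirt6-/- by 0.66 on the log2 scale (SE 0.13, adjusted p = 8.2e-05).

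Levels of different genes were compared per length, with the deposited RPKM, in which a count is scaled by the gene's listed length and the sample's read total. In WT the order was Dkc1 (54.4 RPKM), Acd (31.0), Terf1 (19.6), Tinf2 (19.0), Rtel1 (18.2), Terf2 (13.2), Pot1a (7.60), Terf2ip (6.26), Pot1b (2.46) and Tert (1.32). Within it Terf1 and Tinf2, and Tinf2 and Rtel1, overlapped between samples, and no other neighbours did. Dkc1 and Acd led and Pot1b and Tert closed the order in all 3 genotypes. In Sirt6-/- Terf2 came after Acd with 23.1 RPKM, ahead of Tinf2 (19.7), Rtel1 (16.7) and Terf1 (13.6), and Pot1a (8.44) and Terf2ip (8.19) were neighbours that overlapped. In the libraries labelled Atm-/- Rtel1 (22.8 RPKM) and Tinf2 (20.8) overlapped, ahead of Terf2 (16.7) and Terf1 (14.7), and Terf2ip (7.14) overlapped Pot1a (6.88).

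**Figure D3:**
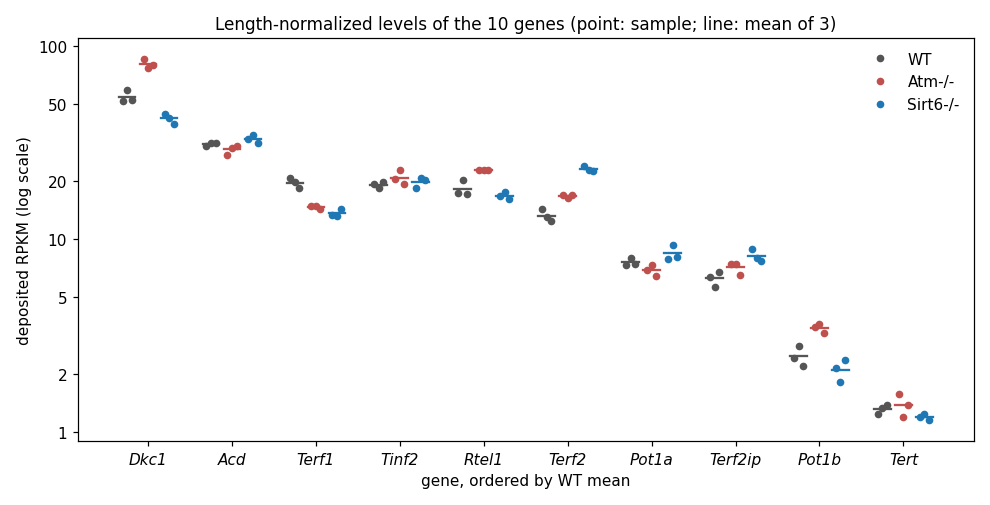
Deposited RPKM (log axis) of the 10 genes in each sample, ordered by the WT mean, with a line at the mean of 3 samples. Dkc1 was above 39 RPKM and Tert below 1.6 RPKM in each sample, and Terf1 was above Terf2 in WT only.

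The ratio of Terf1 to Terf2 turned over between WT and both mutant groups. This ratio and that of Pot1a to Pot1b were chosen after the values of the genes were seen, and neither depends on the read total of a sample. In RPKM, Terf1 to Terf2 was 1.45, 1.51 and 1.49 in WT, 0.879, 0.910 and 0.850 in the libraries labelled Atm-/-, and 0.554, 0.578 and 0.635 in Sirt6-/-. The 3 groups did not overlap, and only the WT samples of these 9 were above 1. The mean was 1.48 ± 0.030 in WT, 0.880 ± 0.030 in the libraries labelled Atm-/- and 0.589 ± 0.041 in Sirt6-/- (SD, n = 3 each). These are given as a description, with no test, since the ratio was chosen from the same values.

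Pot1a to Pot1b was 3.06, 2.87 and 3.39 in WT, 1.97, 2.02 and 1.97 in the libraries labelled Atm-/-, and 3.69, 5.15 and 3.44 in Sirt6-/-, as a ratio of RPKM. Pot1a was the more abundant paralog per length in each sample. The groups did not overlap, although the lowest Sirt6-/- sample was close to the highest WT sample. The means were 3.11 ± 0.26, 1.99 ± 0.032 and 4.09 ± 0.93 (SD, n = 3 each), again with no test. The excess of Sirt6-/- over WT rested in part on Sirt6-/- replicate 2: without it the log2 difference was 0.20 in place of 0.38.

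**Figure D4:**
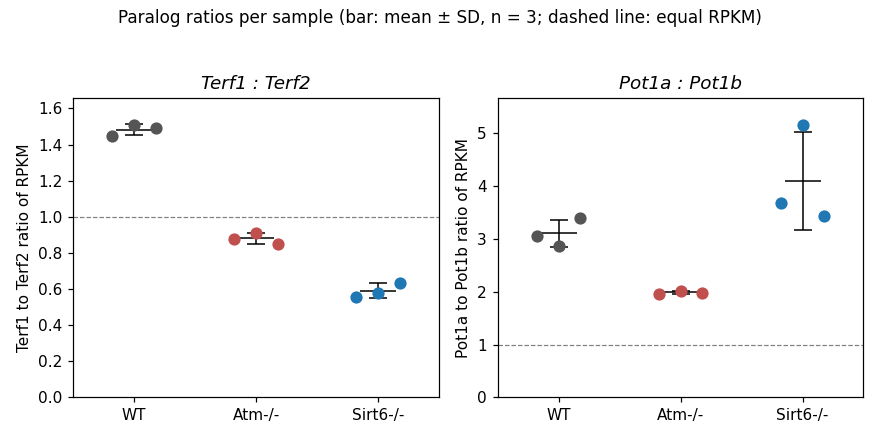
Ratios of RPKM of Terf1 to Terf2 and of Pot1a to Pot1b (vertical axes from 0) in each sample, with mean and SD of 3 samples and a dashed line at equal RPKM. Terf1 to Terf2 was above 1 in WT and below 1 in both mutant groups, and Pot1a to Pot1b was about 2 in the libraries labelled Atm-/- and between 2.87 and 5.15 in the other samples.

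Around the 10 genes, 57 further telomere genes were listed by function, of which Terb2 and Majin had no row and 52 passed the filter on low counts in each comparison with WT. Between the libraries labelled Atm-/- and WT, 26 were higher and 9 lower, against 34.7% of all genes tested higher and 33.6% lower. With library totals in place of TMM 32 were higher and 5 lower, on a scale where the median gene also shifted upwards by 0.16. The shares of all genes are those of the TMM scale. Between Sirt6-/- and WT, 15 were higher and 24 lower, against 39.2% higher and 37.4% lower of all genes tested. Their median log2 fold change was 0.16 and -0.09, where the median over all genes tested was 0.02 in both comparisons.

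The telomerase assembly list holds the partners and assembly factors of the enzyme. Of 13 genes tested, 8 were higher and 2 lower in the libraries labelled Atm-/- than in WT (median log2 fold change 0.28), and 2 were higher and 8 lower in Sirt6-/- (median -0.23). The share called in either direction was 76.9% in each comparison, near the 68.4% and 76.6% of all genes tested. By direction, 34.7% of all genes tested were higher and 33.6% lower in the libraries labelled Atm-/-, and 39.2% and 37.4% in Sirt6-/-. Between the mutant groups all 13 were called, where 75.8% of all genes tested were. Of these, 11 were higher and 2 lower in the libraries labelled Atm-/- than in Sirt6-/-, where 38% and 37.8% of all genes tested were. Parn, which encodes an RNA-trimming enzyme, had log2 fold changes of -0.29 in the libraries labelled Atm-/- and 0.20 in Sirt6-/-, against the majority of the list in both. The call of Parn was lost with library totals in the former, and without WT replicate 3, Sirt6-/- replicate 1 or Sirt6-/- replicate 3 in the latter (log2 fold changes 0.13, 0.21 and 0.15). Nhp2, which encodes a partner of dyskerin in the same RNA-protein particle, had a mean of 203 CPM in the libraries labelled Atm-/- against 113 CPM in WT (log2 fold change 0.84, SE 0.06, adjusted p = 7.8e-09), in the quasi-likelihood test of edgeR with Benjamini-Hochberg adjustment. Shq1, a chaperone of dyskerin, had 20.3 against 11.4 CPM (log2 fold change 0.83). Nat10, an RNA acetyltransferase, fell by 0.76 on the log2 scale in Sirt6-/- (59.4 against 101 CPM). Tep1, which encodes a telomerase-associated protein, was higher in both comparisons, with 66.3 CPM in Sirt6-/- and 35.1 CPM in the libraries labelled Atm-/- against 21.3 CPM in WT (log2 fold changes 1.64 and 0.71).

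CST is the complex that binds the single-stranded tail after POT1 and brings in primase to fill in the opposite strand. Of its 7 genes, primase included, 5 were higher and 1 lower in the libraries labelled Atm-/- than in WT (34.7% and 33.6% of all genes tested were), and 2 were higher and 4 lower in Sirt6-/- (39.2% and 37.4%). The 3 CST subunits did not move alike in either mutant group. In Sirt6-/- Ctc1 had 72.3, 72.1 and 79.5 CPM against 40.7, 40.5 and 38.8 CPM in WT, a log2 fold change of 0.90 (SE 0.06). Ten1 had 7.39, 5.96 and 7.65 CPM against 21.0, 21.9 and 22.6 CPM in WT, a log2 fold change of -1.64 (SE 0.11). Obfc1, the gene of the subunit STN1, had a log2 fold change of 0.46 (SE 0.07). In the libraries labelled Atm-/- the log2 fold changes were 0.39 for Ctc1 (SE 0.06), 0.30 for Obfc1 (SE 0.08) and -0.42 for Ten1 (SE 0.09). Prim2, a primase subunit, fell by 0.82 on the log2 scale in Sirt6-/-.

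Genes of end processing and repair were mixed. Of 22 tested, 63.6% passed in the libraries labelled Atm-/- and 77.3% in Sirt6-/-, near the 68.4% and 76.6% of all genes tested: 11 were higher and 3 lower in the libraries labelled Atm-/- than in WT (median log2 fold change 0.22), and 8 were higher and 9 lower in Sirt6-/- (median 0.02). Wrn, the Werner syndrome helicase gene, was higher in both, with log2 fold changes of 0.75 (SE 0.09) in the libraries labelled Atm-/- and 1.51 (SE 0.09) in Sirt6-/-. Ercc1 and Ercc4 encode the partner subunits of a nuclease, and they moved oppositely in both groups. In the libraries labelled Atm-/- Ercc1 had a log2 fold change of 0.69 and Ercc4 of -0.91, and in Sirt6-/- the values were 0.65 and -0.59. Slx4, a scaffold for nucleases, fell by 0.47 on the log2 scale in the libraries labelled Atm-/- against WT. It was not called in Sirt6-/- (log2 fold change 0.13). In Sirt6-/-, Smarcal1, a fork-remodelling enzyme gene, was higher (log2 fold change 0.89), while Parp1 and Rif1 fell by 0.73 and 0.71 on the log2 scale.

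Of 8 genes of chromatin linked to telomerase-independent lengthening, 2 were higher and 2 lower in the libraries labelled Atm-/- than in WT, and 2 were higher and 3 lower in Sirt6-/-. The 50% and 62.5% called are below the 68.4% and 76.6% of all genes tested. Daxx, a histone chaperone, fell by 0.32 on the log2 scale in the libraries labelled Atm-/- and by 0.63 in Sirt6-/-, and Nr2f2, a nuclear receptor gene, had a log2 fold change of 0.96 in Sirt6-/-. Among the meiotic telomere genes 2 were tested, and Sun2, a nuclear envelope protein gene, fell by 0.60 on the log2 scale in the libraries labelled Atm-/-. Ccdc79 and Ccdc155 had at most 2 reads in any sample.

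**Figure D5:**
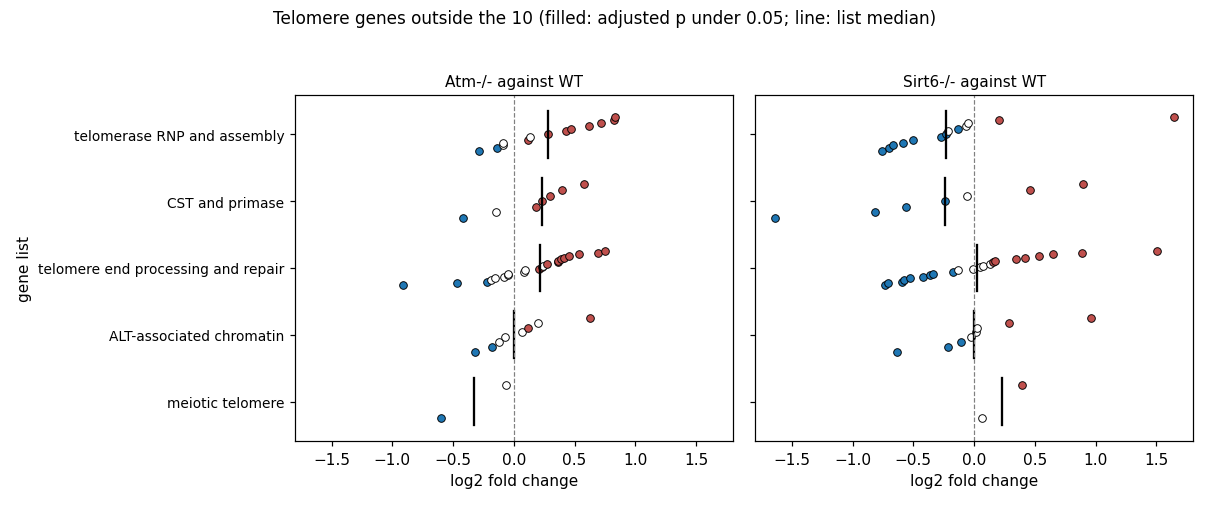
Log2 fold changes (horizontal axes) against WT of the telomere genes outside the 10, by list, with filled points for adjusted p under 0.05 (red higher, blue lower) and a line at the list median. The median of the telomerase assembly list was 0.28 in the libraries labelled Atm-/- and -0.23 in Sirt6-/-.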

How the data were processed

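Read counts per gene of 9 samples were used as the authors deposited them, with no normalization; the deposited RPKM are these counts per listed length and per one read total of a sample. Per the labels' processing notes the build was mm10; aligner, counter and annotation are not given in the sources used here. Each pair of groups was fitted in edgeR 4.0.16 (R 4.3.3) with filterByExpr, TMM, the quasi-likelihood test (prior count 0.125) and Benjamini-Hochberg adjustment over all genes tested; SEs come from the F statistic. The alternatives tried (other scalings, filters, sample sets and tests, among them the DESeq2 1.42.0 Wald test) are given with their effects in the closing section. No samples of a genotype held identical counts. The chi-square per gene was 16.4 and 15.1 between WT replicate 2 and WT replicates 1 and 3. For all other pairs within genotypes it was 5.24 to 6.88. In simulated counts of the 13283 genes of Atm-/- against WT, 72 of 100 genes changed 1.5-fold and 87 of 100 changed 2-fold were recovered, with 14 false calls. Only these genes were changed there, while 68.4% of genes passed in the data. The adjustment for many tests therefore differs, and these rates do not carry over to the data.

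The 10 genes, the lists and their tests were chosen with earlier results of these data known. All 10 are named; of the other telomere genes, up to 5 called rises and 5 falls against WT whose mean log2 CPM reached 1, plus genes shown at 0 or near it. Obfc1, Parn, the marker genes and values of a named gene in its other comparison were chosen after their values were seen. Positions and coding sequences come from GENCODE M21, promoters from RefSeq, where 9 of the 10 matched.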

Additional observations from a re-analysis of the deposited data

Results flagged for a closer look

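Dkc1 and Rtel1 stood out because their differences from WT had opposite signs in the libraries labelled Atm-/- and in Sirt6-/-, each past the threshold. The direct comparison of both mutant groups gave 0.88 on the log2 scale for Dkc1 (SE 0.05) and 0.39 for Rtel1 (SE 0.05). A difference there follows from the opposite signs by which these genes were picked, so it is given as a size and not as further support. The standing of the pair differs. The calls of Dkc1 against WT held in all alternatives run, while that of Rtel1 in the libraries labelled Atm-/- was lost with any one library left out except WT replicate 2 (adjusted p up to 0.168, without WT replicate 3, edgeR), and that in Sirt6-/- was lost without Sirt6-/- replicate 3 (adjusted p = 0.0533) and with library totals (adjusted p = 0.126).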

How the results depend on the processing

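Dkc1 and Terf1 against WT in both mutant groups, Terf2 and Terf2ip in Sirt6-/- against WT, the 7 calls between the mutant groups, and the named telomere genes outside the 10 other than Parn kept direction and call under the alternatives run (other size factors, library totals, other filters, all 9 samples in one fit, replicate block, DESeq2, edgeR's exact test, each library left out). For genes outside the 10 these runs were added after seeing the data. The libraries labelled Atm-/- had 7 of the 10 genes called against WT, 4 without WT replicate 3 or without Atm-/- replicate 1, and 4 to 6 with any one library left out. Signs reversed only for values that were not called. With library totals, Tert turned to 0.065 and Tinf2 to 0.13 (libraries labelled Atm-/- against WT) and Tinf2 to 0.056 (Sirt6-/- against WT). Acd in Sirt6-/- against WT was -0.0091 with DESeq2 size factors, -0.0080 without a filter, -0.00039 with all 9 samples and -0.010 with DESeq2. With single libraries left out, values against WT ranged from -0.031 to 0.030 (Acd, Sirt6-/-), -0.0093 to 0.11 (Pot1a, Sirt6-/-), -0.075 to 0.023 (Tinf2, Sirt6-/-), -0.039 to 0.095 (Terf2ip, Atm-/-), -0.19 to 0.0042 (Tert, Atm-/-) and -0.10 to 0.026 (Tinf2, Atm-/-), and Tinf2 between the mutant groups ranged from -0.058 to 0.069. The cause was not tested.

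The labels number the replicates alike in each group, but deviations of same-numbered samples had an r of only -0.016 to 0.036 over the 3 pairs of groups. Between the mutant groups all same-number values (0.022 to 0.036) lay above the others (-0.035 to 0.011). Deviations around means of 3 samples cannot decide whether same-numbered samples shared a batch. With a replicate block, 6, 5 and 7 of the 10 genes were called in the libraries labelled Atm-/- against WT, Sirt6-/- against WT and the direct comparison, and 32, 38 and 45 of the telomere genes outside them. Without the block the counts were 7, 5 and 7, and 35, 39 and 44. They show only how the calls changed with the block, since the share of all genes called in that fit is not given. Depth limits Tert and Pot1b most, with 132 to 421 reads per sample.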
